A study of Mus musculus with 48 samples.

Results

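The lymphatic identity genes are a set of 10 genes linked to lymphatic endothelial cells (LECs), taken by name from the 54752 genes of the expression matrix. They comprise the transcription factors Prox1, Sox18 and Nr2f2, the surface receptors Lyve1 and Stab2, the surface glycoproteins Pdpn, Thy1 and Clec2d, and the secreted proteins Reln and Mmrn1. Their levels were followed in LECs of the heart, LECs of the diaphragm, cardiomyocytes, and cardiac blood endothelial cells (BECs). Leaving out Prox1, by whose reporter the cells were sorted, 7 of the 9 others were higher in heart LECs than in heart BECs. Among all genes tested 8.94% were called in this direction. Sox18 was lower, with a call that some alternatives ended, and Clec2d did not pass the test. Compared with diaphragm LECs, heart LECs held less Lyve1, Mmrn1 and Reln transcript, and, with calls that were lost under several alternatives, less Nr2f2 and Pdpn and more Stab2 transcript. With treatment, 0 of the 10 members were called by limma in heart LECs, diaphragm LECs or heart BECs, in comparisons that called 0% to 0.0261% of all genes tested. In the cardiomyocyte pellets Prox1 was lower in the angII+VEGFC group than in the ctrl group, with a call that did not hold without any single ctrl library.

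Lymphatic vessels drain fluid and immune cells from tissues, and their endothelium arises in the embryo largely from veins. There, SOX18 and COUP-TFII (the product of Nr2f2) act on Prox1, whose product is the master regulator of the lymphatic fate and is needed in adult LECs to keep it. Many of the proteins used to recognize lymphatic vessels, such as LYVE1, podoplanin and reelin, are surface or secreted products of cells that express PROX1, and several of them are also made elsewhere, for example LYVE1 by tissue macrophages and podoplanin and THY1 by fibroblasts.

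All samples came from Prox1-eGFP mice, with C57BL/6 as the labelled strain, a knock-in line made in C57BL/6J embryos in which an IRES-eGFP cassette sits in the 3' untranslated region of the endogenous Prox1 gene, so that controls carry the reporter too. The mice were 8 to 16 months old by their labels. They were male according to the study's methods, which give ages in weeks. For 5 to 6 weeks they received BSA alone (ctrl), angiotensin II in BSA (angII), a hormone that raises blood pressure, or angiotensin II and VEGFCc156s (angII+VEGFC), a mutant growth factor that activates VEGFR3, the receptor encoded by Flt4. Each population had 4 ctrl, 5 angII and 3 angII+VEGFC libraries, 48 in all from 13 mice, 11 of which gave all 4 populations. LECs were sorted as DAPI-negative, CD31-positive, CD45.2-negative and eGFP-positive cells and BECs as eGFP-negative cells of the same gate, so Prox1 itself chose LECs against BECs. Its levels in that comparison are therefore given as a description, with no test. The cardiomyocytes were a centrifuged pellet of the digested heart and were not sorted. They were sequenced apart from the endothelial libraries, so that population, isolation and sequencing set cannot be told apart between cardiomyocytes and the rest.

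The values are TPM, a share of all transcripts in a library that is scaled for transcript length and for the library total, so no depth can be given for a library. Between 12924 and 25896 genes reached 1 TPM in a sorted library and between 13020 and 19306 in a cardiomyocyte library. In LECs of both tissues this number was highest in the angII group, with a median of 22814 genes in heart LECs against 18360 in ctrl and 18425 in angII+VEGFC. Pecam1 encodes CD31, a marker of the sort, so its levels in sorted cells are given as a description. Pecam1 was at 300.5 TPM or more in heart LECs, 287 or more in diaphragm LECs and 576 or more in heart BECs. In cardiomyocyte pellets Pecam1 was at 105 to 173 TPM. The summed level of 18 blood endothelial genes was 13118 to 22742 TPM in heart BECs, 4084 to 9525 TPM in heart LECs and 3113 to 4356 TPM in diaphragm LECs, and 2 heart LEC libraries, angII replicates 2 and 5, stood apart with 8993 and 9525 TPM against 4084 to 6124 TPM in the other 10. Called member differences between heart LECs and the other endothelial populations are given without these libraries too, as are the member counts of heart LEC treatment comparisons. The results of the gene lists, the interactions and the likeness values include them. Among diaphragm LECs angII replicate 3, the 1 library of mouse 4, stood apart with 22969 TPM for the summed 20 other lymphatic genes against 35578 to 44123 TPM in the other 11, and with 1785 TPM for the pan-endothelial genes against 2198 to 2785 TPM. Its cardiomyocyte markers summed to 996 TPM, within the 5.45 to 1327 TPM of the others.

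To show what lies in front of the genes on which the comparisons turn, RefSeq promoter windows (GRCm38.p6) were read for 7 of the 10 members. Lyve1, Sox18 and Thy1 had no entry. The 250 bases before the annotated start are printed 5' to 3' on the strand of the gene for Prox1 (the gene used in the sort), Mmrn1 (the largest difference between LECs and BECs), Stab2 (the member that was higher in heart than in diaphragm LECs) and Clec2d (a member that was not called between LECs and BECs). Capitals mark matches to any of 3 motifs searched on both strands: AACAAT, a core of SOX factor sites, AGGTCA, a core bound by nuclear receptors such as COUP-TFII, and AGGAAG, a core of ETS factor sites.
Prox1, chr1:190170828-190171077, minus strand: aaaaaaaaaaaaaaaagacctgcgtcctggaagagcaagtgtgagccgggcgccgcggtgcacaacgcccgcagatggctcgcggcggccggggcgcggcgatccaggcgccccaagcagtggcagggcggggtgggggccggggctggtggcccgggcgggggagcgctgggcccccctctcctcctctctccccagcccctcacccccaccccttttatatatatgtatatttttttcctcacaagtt
Mmrn1, chr6:60944067-60944316, plus strand: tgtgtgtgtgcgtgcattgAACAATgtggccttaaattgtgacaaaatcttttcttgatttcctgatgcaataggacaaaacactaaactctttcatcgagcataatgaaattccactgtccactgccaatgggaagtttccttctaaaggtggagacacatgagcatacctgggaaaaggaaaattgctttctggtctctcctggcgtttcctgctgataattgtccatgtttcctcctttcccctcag
Stab2, chr10:87007943-87008192, minus strand: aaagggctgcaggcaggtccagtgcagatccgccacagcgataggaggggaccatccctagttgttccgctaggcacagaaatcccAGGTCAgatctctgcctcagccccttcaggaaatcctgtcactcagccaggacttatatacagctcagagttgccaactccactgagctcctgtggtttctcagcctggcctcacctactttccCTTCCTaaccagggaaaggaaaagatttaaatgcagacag
Clec2d, chr6:129180365-129180614, plus strand: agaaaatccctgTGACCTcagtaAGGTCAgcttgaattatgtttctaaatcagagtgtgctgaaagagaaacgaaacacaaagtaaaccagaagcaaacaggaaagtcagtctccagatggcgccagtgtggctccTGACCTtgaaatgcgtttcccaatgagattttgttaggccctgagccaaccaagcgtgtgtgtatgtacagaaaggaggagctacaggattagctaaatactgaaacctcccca
The SOX core was in 9.42% of 32851 windows of the same length and, among the members, in that of Mmrn1. The nuclear receptor core was in 14.0% of all windows and in those of Pdpn, Stab2 and Clec2d, and the Clec2d window held 3 copies, 233 to 238, 222 to 227 and 109 to 114 bases before the start. The ETS core was in 29.5% of all windows and in those of Stab2 and Nr2f2. No motif was found in either of the 2 RefSeq windows of Prox1 or in that of Reln, and none of the matches overlapped another. A match describes letters in these windows and does not mark a bound site. The RefSeq start of Mmrn1 lies 19341 bases downstream of the start of the Ensembl gene, so its window is that of an internal start.

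**Figure D1:**
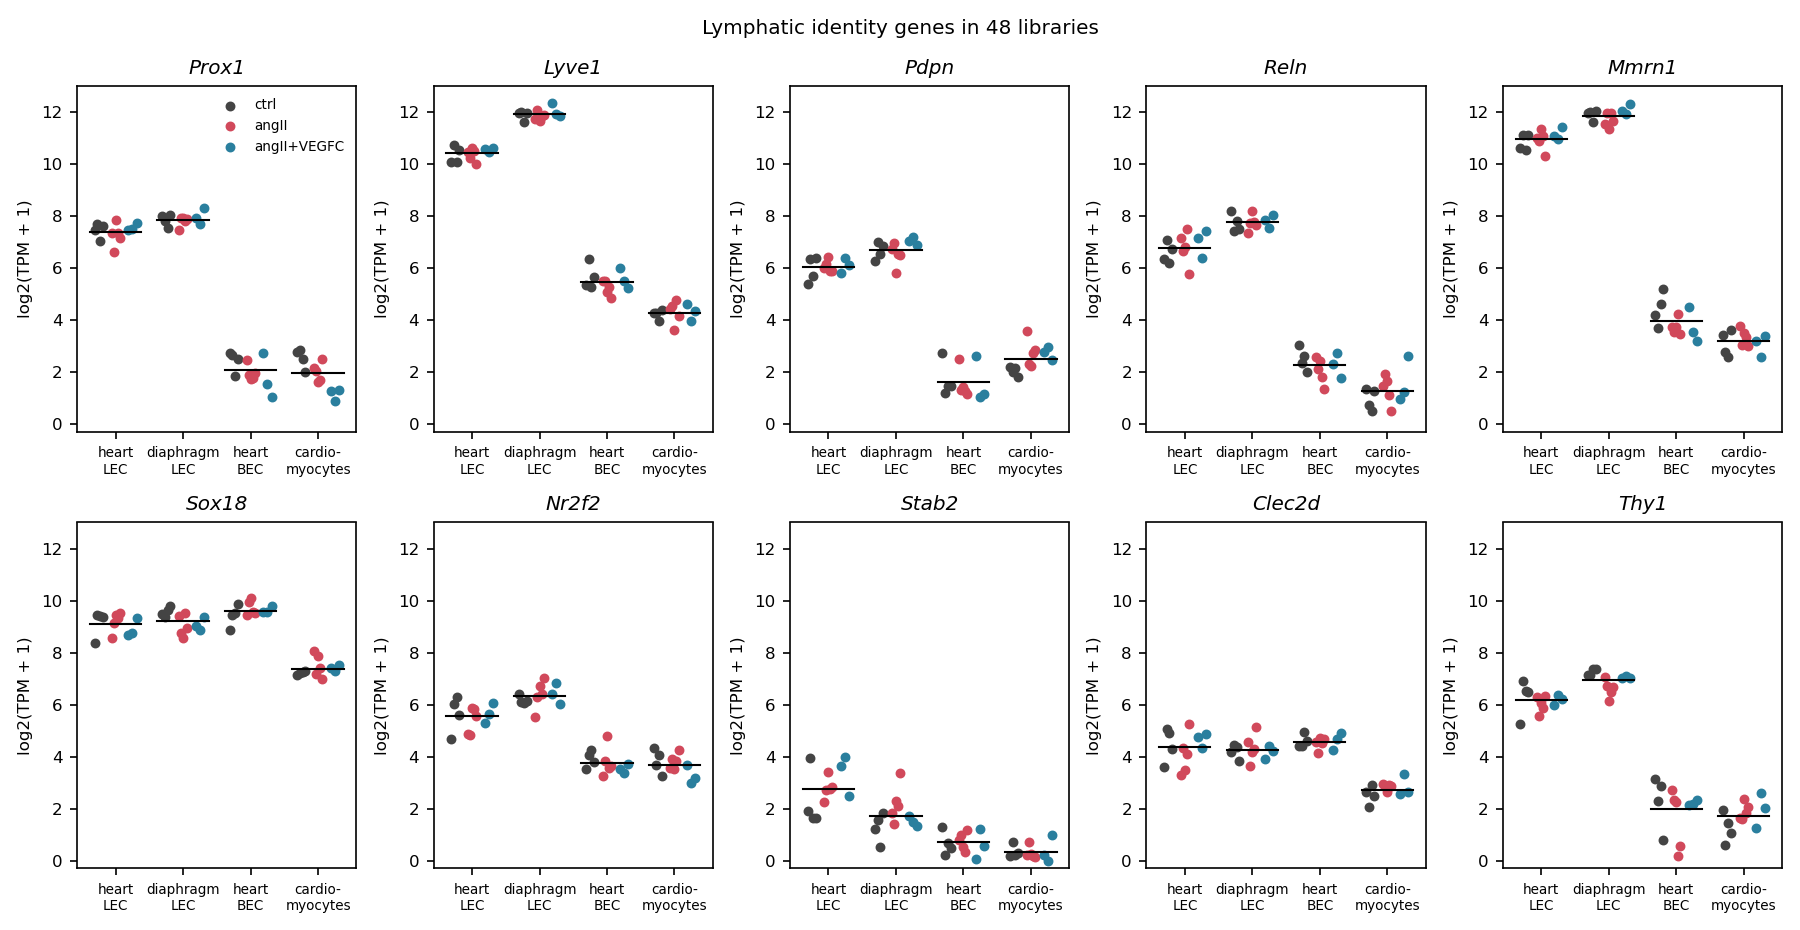
Levels of the 10 members in 48 libraries, as log2(TPM + 1), by population (horizontal axis) and treatment (colour), with the mean of the 12 libraries of a population as a line. All 10 panels share one vertical scale, and the means of 8 members sat higher in LECs than in BECs. Nr2f2 libraries of heart LECs and Stab2 libraries of diaphragm LECs overlapped those of heart BECs. Sox18 and Clec2d overlapped between heart BECs and LECs of both tissues.

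Prox1 (chromosome 1, 190118035 to 190170714, minus strand, GRCm38) had 97.6 TPM in the lowest heart LEC library, 176 in the median and 230 in the highest (n = 12). In diaphragm LECs it ranged from 175 through a median of 236 to 315 TPM. In heart BECs it ranged from 1.06 through 2.81 to 5.72 TPM. LEC and BEC libraries did not overlap, and within a mouse heart LECs held a median of 45.1 times as much Prox1 transcript as heart BECs, with a range of 30.9 to 198 over 12 mice. An antisense gene, Prox1os, shares 133 of the 8390 exonic bases of Prox1, and use of strand in the quantification is not given in the sources used here, so reads from those bases cannot be told apart.

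The other 2 transcription factors behaved differently from each other. Nr2f2 (chromosome 7, 70351944 to 70366735, minus strand), which encodes the venous and lymphatic regulator COUP-TFII, had 24.8, 48.01 and 77.9 TPM as the lowest, median and highest heart LEC libraries. The corresponding values were 45.0, 79.5 and 130.1 TPM in diaphragm LECs and 8.47, 11.7 and 26.4 TPM in heart BECs. The ranges of heart LECs and BECs overlapped slightly, yet in 12 of 12 mice heart LECs held more Nr2f2 than BECs did, with a fitted difference of 1.83 ± 0.19 (SE) on the log2(TPM + 1) scale (limma, adjusted p = 1.9e-09). The antisense gene B130024G19Rik shares 7.46% of the exonic bases of Nr2f2 and had medians of 4.92 and 1.66 TPM in LECs and BECs of the heart. In diaphragm LECs its median was 5.87 TPM and its highest library had 67.6 TPM. Its part in the Nr2f2 levels was not tested.

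Sox18 (chromosome 2, 181669836 to 181671640, minus strand), the SOX factor that switches on Prox1 in embryonic veins, was abundant in every endothelial population. It had 330, 645 and 724 TPM as the lowest, median and highest heart LEC libraries, 374, 652 and 884 TPM in diaphragm LECs, and 463, 748 and 1091 TPM in heart BECs. All 3 ranges overlapped. Within mice, however, Sox18 was lower in heart LECs than in heart BECs in 12 of 12, by a median ratio of 0.706, and the fitted difference was -0.51 ± 0.13 (limma, adjusted p = 0.0042). This call was lost within batch 1 (-0.53, adjusted p = 0.14) and with the number of genes detected as a covariate (-0.38, adjusted p = 0.078). In diaphragm LECs the difference from heart BECs was -0.35 ± 0.13 (limma, adjusted p = 0.060), and the test was passed without mouse 1, 3 or 18 or after quantile normalization.

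Lyve1 (chromosome 7, 110850607 to 110863239, minus strand), the hyaluronan receptor, had 1019, 1417 and 1697 TPM as the lowest, median and highest heart LEC libraries. It had 3150, 3827 and 5161 TPM in diaphragm LECs and 27.4, 41.6 and 81.1 TPM in heart BECs. The libraries of these 3 populations did not overlap. Lyve1 exceeded heart BECs by 4.94 ± 0.10 in heart LECs (limma, adjusted p = 1.3e-27) and by 6.43 ± 0.10 in diaphragm LECs (limma, adjusted p = 5.9e-31) on the log2(TPM + 1) scale. Stab2 (chromosome 10, 86841198 to 87008025, minus strand), a scavenger receptor that also binds hyaluronan, was the least abundant member, with 2.09, 5.60 and 14.7 TPM in heart LECs, 0.434, 2.13 and 9.34 TPM in diaphragm LECs and 0.0456, 0.540 and 1.46 TPM in heart BECs. Heart LEC and BEC libraries did not overlap for Stab2, and the fitted difference was 2.12 ± 0.28 (limma, adjusted p = 2.7e-07). The diaphragm LEC libraries overlapped those of BECs, with a difference of 0.96 ± 0.28 (limma, adjusted p = 0.011) that lost its call without mouse 2 (adjusted p = 0.078) and within batch 1 (0.61, adjusted p = 0.67).

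Among the surface glycoproteins, Pdpn and Thy1 marked LECs and Clec2d did not. Pdpn (chromosome 4, 143267431 to 143299564, minus strand) encodes podoplanin, the ligand of the platelet receptor CLEC-2, and had 41.2, 65.7 and 85.6 TPM as the lowest, median and highest heart LEC libraries against 1.08, 1.55 and 5.67 TPM in heart BECs. Thy1 (chromosome 9, 44043384 to 44048579, plus strand), a lipid-anchored adhesion protein, had 37.5, 75.8 and 118 TPM against 0.142, 3.82 and 7.86 TPM. For both genes the LEC and BEC libraries did not overlap, in either tissue, and the differences in heart LECs were 4.44 ± 0.20 for Pdpn (limma, adjusted p = 2.6e-18) and 4.13 ± 0.25 for Thy1 (limma, adjusted p = 4.8e-15). Clec2d (chromosome 6, 129180615 to 129186534, plus strand), which encodes a lectin-like ligand of an inhibitory receptor of natural killer cells, had 8.82, 19.1 and 37.4 TPM in heart LECs, 11.5, 18.0 and 34.1 TPM in diaphragm LECs and 16.7, 23.0 and 29.7 TPM in heart BECs. These ranges overlapped widely. In 4 of 12 mice heart LECs held more Clec2d than BECs, and the 95% interval of the fitted difference ran from -0.58 to 0.22 (limma, adjusted p = 0.58).

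Of the secreted proteins, Mmrn1 had the largest difference among the members. Mmrn1 (chromosome 6, 60924976 to 60989378, plus strand), which encodes multimerin 1, a large protein that binds factor V, had 1282, 2098 and 2775 TPM as the lowest, median and highest heart LEC libraries and 8.05, 12.3 and 35.9 TPM in BECs. Its difference of 7.00 ± 0.13 (limma, adjusted p = 2.0e-28) ranked 2 of the 32754 genes tested, and within mice heart LECs held 61.4 to 345 times as much as BECs. Reln (chromosome 5, 21884454 to 22344702, minus strand), which encodes the matrix glycoprotein reelin, had 53.7, 108 and 180.2 TPM in heart LECs against 1.55, 4.06 and 7.27 TPM in BECs, with a difference of 4.51 ± 0.18 (limma, adjusted p = 1.3e-19). Neither gene overlapped between LEC and BEC libraries in either tissue.

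Thus, without Prox1, whose direction the sort fixed, 7 of 9 members were higher in heart LECs than in heart BECs, a direction in which 8.94% of the 32754 genes tested were called, and 1 was lower, against 8.64% of all genes. In diaphragm LECs 7 of 9 were higher than in heart BECs, against 7.54% of all genes, and 0 were lower by limma, against 9.01%, with Sox18 the 1 lower member at an unadjusted p under 0.05. The median difference over these 9 members was 4.13 for LECs of the heart and 4.92 for those of the diaphragm, while over all genes tested it was 0.15 and 0.03. With Prox1 added, as a description, the counts higher were 8 of 10 in each tissue. Within the sequencing batches the 8 members kept positive differences in both tissues, and in heart LECs each of the 7 other than Prox1 was called in both batches. Without the 2 heart LEC libraries that stood apart, the differences of the 7 from heart BECs ran from 1.87 for Nr2f2 to 7.08 for Mmrn1, that of Sox18 was -0.53 (limma, adjusted p = 0.0049) and that of Clec2d was -0.34 (limma, adjusted p = 0.21). Without the diaphragm LEC library that stood apart, the 7 ran from 0.97 for Stab2 to 7.95 for Mmrn1 in diaphragm LECs, and that of Sox18 was -0.33 (limma, adjusted p = 0.083). These are comparisons of whole populations, in which fewer cells of a type and less RNA per cell cannot be told apart.

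**Figure D2:**
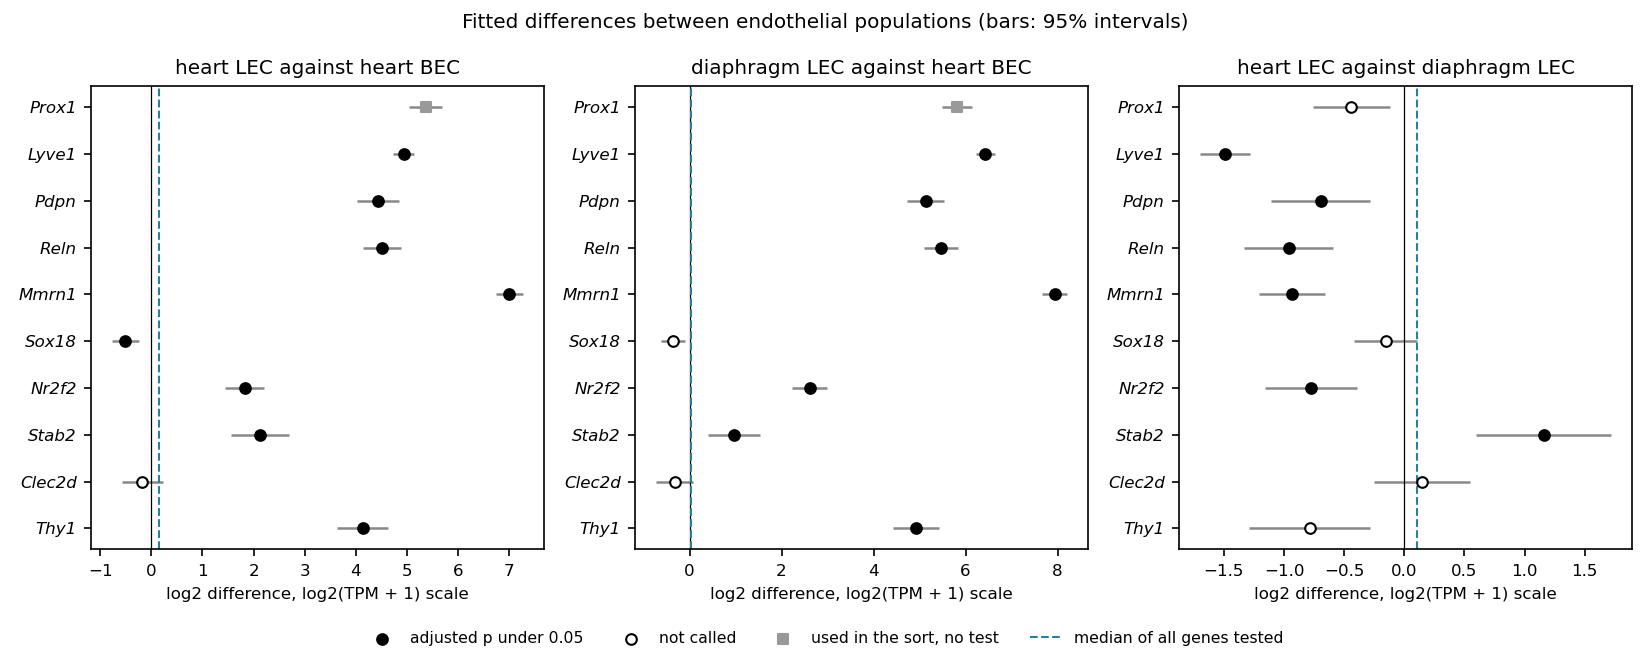
Fitted log2 differences of the 10 members between endothelial populations, in units of log2(TPM + 1), with 95% intervals as bars, filled points for an adjusted p under 0.05, grey squares for Prox1 where the sort rested on it, and the median of all 32754 genes tested as a dashed line. In both comparisons with heart BECs 8 members lay to the right, from 0.96 to 7.94, and the comparison of heart with diaphragm LECs had 5 called to the left and Stab2 to the right.

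The members were read beside a list of 20 other lymphatic genes and a list of 18 blood endothelial genes. Both lists were chosen with earlier results of these data known, so their counts are given as a description. In heart LECs 18 of the 20 other lymphatic genes were higher than in heart BECs, against 8.94% of all genes, and 0 were lower, against 8.64%. Their median difference was 2.93 against 0.15 over all genes. The 3 largest differences were those of the chemokine gene Ccl21a, with a mean of 19346 ± 4020 TPM in the heart LEC libraries (SD, n = 12) against 259 ± 126 TPM in BECs, of the T-box factor gene Tbx1 (213 ± 101 against 1.94 ± 1.06 TPM) and of Fgl2 (1227 ± 251 against 31.4 ± 21.5 TPM). The 3 smallest were 0.56 ± 0.13 for Hhex (limma, adjusted p = 0.0012), 0.13 ± 0.10 for Gata2 and -0.07 ± 0.13 for the VEGF-C co-receptor gene Nrp2, of which Gata2 and Nrp2 did not pass the test. Of the 18 blood endothelial genes 17 were lower in heart LECs, against 8.64% of all genes, led by Sox17 (-4.23 ± 0.47), Rgcc (-3.83 ± 0.28) and Tcf15 (-3.67 ± 0.30). Plvap, which encodes a protein of fenestral and stomatal diaphragms, was the 1 that was higher, by 1.41 ± 0.13 (limma, adjusted p = 1.3e-10), and the smallest falls were those of Notch1 (-0.38 ± 0.12) and Cdh13 (-0.29 ± 0.10).

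Heart and diaphragm LECs were sorted with the same gate and in 11 mice came from the same animal. They differed in 6 of the 10 members, with 5 lower and 1 higher in the heart. Of all genes tested 1.88% were called lower and 2.67% higher. Among the members Lyve1 differed most. The highest heart LEC library had 1697 TPM and the lowest diaphragm LEC library 3150 TPM, so the groups did not overlap, and within a mouse heart LECs held 0.268 to 0.420 times the diaphragm level. The fitted difference was -1.49 ± 0.10 (limma, adjusted p = 2.7e-12), and it was -1.51 within batch 1 and -1.48 within batch 2.

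Mmrn1 and Reln followed. Mmrn1 was at 1282 to 2775 TPM in heart LECs and 2585 to 5035 TPM in diaphragm LECs, with a median ratio of 0.515 within mice and a difference of -0.94 ± 0.13 (limma, adjusted p = 1.1e-05). Reln was at 53.7 to 180.2 TPM in the heart and 163 to 293 TPM in the diaphragm, with a median ratio of 0.592 and a difference of -0.96 ± 0.18 (limma, adjusted p = 0.00067). For both genes the libraries overlapped at the edge while all 11 mice had less in the heart. Within the batches the Mmrn1 difference was -0.93 and -0.94, and that of Reln was -1.30 (adjusted p = 0.053) and -0.62 (adjusted p = 0.036).

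Nr2f2 and Pdpn were lower in heart LECs with less firm calls. Nr2f2 was lower in 9 of 11 mice, with a difference of -0.78 ± 0.19 (limma, adjusted p = 0.0091), and lost its call without mouse 6 (adjusted p = 0.062), with the number of genes detected as a covariate (-0.64, adjusted p = 0.086), within batch 1 (-1.09, adjusted p = 0.13) and within batch 2 (-0.61, adjusted p = 0.073). Pdpn had 41.2 to 85.6 TPM in the heart and 54.6 to 144 TPM in the diaphragm and was lower in 11 of 11 mice, with a difference of -0.70 ± 0.20 (limma, adjusted p = 0.039). When single mice were left out, its difference stayed between -0.75 and -0.64, but the call was lost without any 1 of mice 2, 5, 6, 8, 9, 11, 14, 15 and 18 (adjusted p up to 0.092). The call was also lost without the 2 heart LEC libraries that stood apart (adjusted p = 0.071), with a pseudocount of 0.1 (adjusted p = 0.12) and without the filter on low values (adjusted p = 0.064). Within batches 1 and 2 the Pdpn difference was -0.61 (adjusted p = 0.52) and -0.76 (adjusted p = 0.039).

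Prox1 and Thy1 were lower in the heart in 11 of 11 mice and did not pass the test. Both LEC populations were gated on eGFP from the Prox1 locus, so the sort also acted on their Prox1 levels. The median ratio within mice was 0.730 for Prox1, with a difference of -0.44 ± 0.16 (limma, adjusted p = 0.12), and 0.573 for Thy1, with a difference of -0.79 ± 0.25 (limma, adjusted p = 0.063). With the mouse as a replicate block Thy1 did pass, at -0.87 (adjusted p = 0.033), as it did without the diaphragm LEC library that stood apart, at -0.84 (adjusted p = 0.036). The intervals of the remaining 2 members spanned 0, from -0.42 to 0.11 for Sox18 and from -0.26 to 0.55 for Clec2d.

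Stab2 went the other way. By mouse, heart LECs had 2.69 against 1.29 TPM in mouse 1, 14.6 against 1.96 in mouse 5, 2.12 against 0.434 in mouse 9 and 2.09 against 2.52 in mouse 11, all ctrl. In the angII group the values were 3.80 against 2.59 in mouse 3, 5.55 against 1.64 in mouse 15, 5.65 against 3.33 in mouse 18 and 6.03 against 9.34 in mouse 14. In the angII+VEGFC group they were 11.4 against 2.30 in mouse 2, 14.7 against 1.77 in mouse 6 and 4.55 against 1.505 in mouse 8. Thus 9 of 11 mice had more Stab2 in the heart, mice 11 and 14 had less, and the fitted difference was 1.16 ± 0.28 (limma, adjusted p = 0.0085). After quantile normalization it was 0.86 (adjusted p = 0.13), without mouse 6 it was 1.05 (adjusted p = 0.057), and within batches 1 and 2 it was 1.22 (adjusted p = 0.28) and 1.2 (adjusted p = 0.10).

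**Figure D3:**
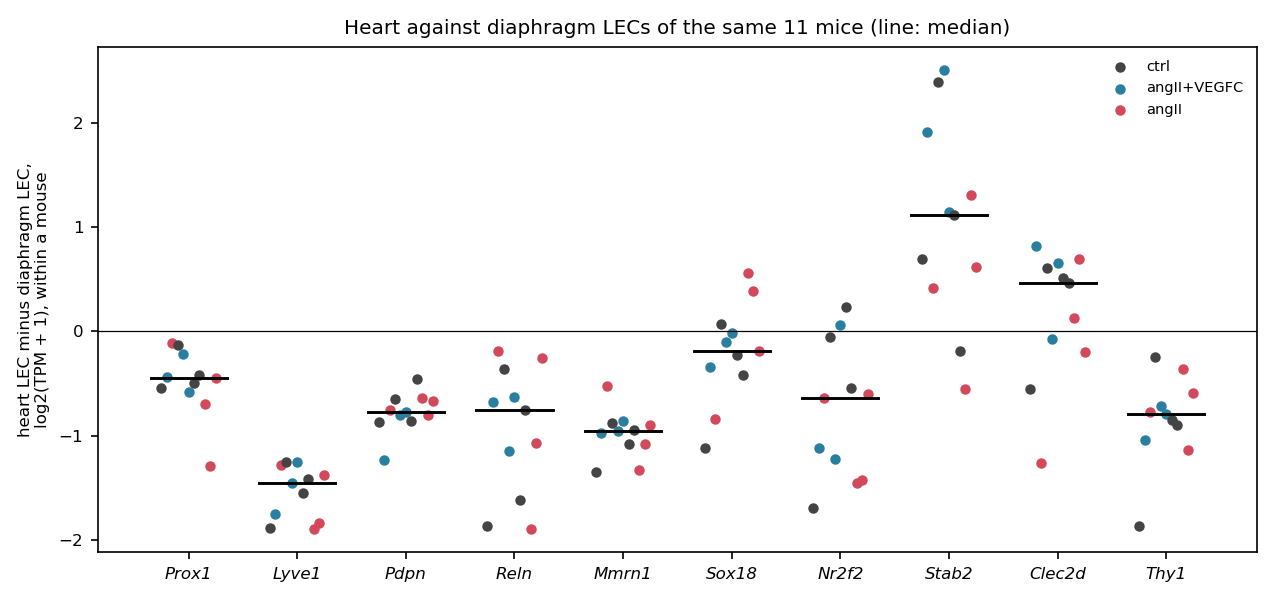
Difference between heart and diaphragm LECs of the same mouse for each member, as log2(TPM + 1) of heart LECs minus that of diaphragm LECs, with 1 point for each of 11 mice, coloured by treatment, and a line at the median. Points of Prox1, Lyve1, Pdpn, Reln, Mmrn1 and Thy1 all lie under 0, and 9 of 11 points of Stab2 lie over 0.

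Over the whole list, 5 members were lower in heart than in diaphragm LECs, a direction in which 1.88% of the 32754 genes tested were called, and 1 was higher, against 2.67% of all genes. The median difference was -0.74 over the members and 0.10 over all genes. Of the 20 other lymphatic genes 10 were lower and 3 higher in heart LECs, with Fgl2 (-1.25 ± 0.20), the neurotensin gene Nts (-1.12 ± 0.18) and Flt4 (-0.97 ± 0.12) at one end and Gata2 (1.18 ± 0.10), the valve factor gene Foxc2 (0.95 ± 0.19) and the claudin gene Cldn11 (0.88 ± 0.20) at the other. Of the 18 blood endothelial genes 12 were higher and 2 lower in heart LECs. Flt1, which encodes VEGF receptor 1 of blood vessels, had 119.5 ± 33.1 TPM in the heart LEC libraries (SD, n = 12). In diaphragm LECs Flt1 had 13.4 ± 11.7 TPM. Car4 differed by 2.704 ± 0.29 and Ly6c1 by 2.65 ± 0.32. The heart LEC libraries, with the 2 that stood apart included, varied widely for both genes. Car4 was at 39.0 ± 38.4 TPM in heart and 4.13 ± 3.35 TPM in diaphragm LECs (SD), and Ly6c1 at 758 ± 723 and 114 ± 101 TPM. At the other end were Gpihbp1 (-0.64 ± 0.10), Meox2 (-0.45 ± 0.17) and Kdr (-0.38 ± 0.09). Gpihbp1 and Kdr were the 2 called lower, and Meox2 did not pass the test.

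Markers of other cells also differed between the LEC populations. The summed level of 8 fibroblast markers was 752 to 1794 TPM in heart LECs and 148 to 1238 TPM in diaphragm LECs, with 3 markers higher in the heart. That of 6 mesothelial markers was 0.730 to 219 TPM in the heart and 12.9 to 147 TPM in the diaphragm, with 5 lower and 1 higher in the heart. The sums of 8 cardiomyocyte markers were 152 to 1188 and 5.45 to 1327 TPM, with 5 higher in the heart, and those of 8 macrophage markers were 2.96 to 279.7 and 7.87 to 329 TPM, with 0 of 6 tested called by limma and 0 at an unadjusted p under 0.05. Lymphocyte markers, 2 of which were lower in the heart, summed to 15.0 to 49.1 and 48.7 to 99.9 TPM. What these transcripts and those of blood endothelium contribute to the differences in the members was not tested. Without the 2 heart LEC libraries that stood apart, the differences were -1.43 for Lyve1, -0.86 for Mmrn1, -0.84 for Reln, -0.73 for Nr2f2 and 1.16 for Stab2, and each kept an adjusted p under 0.05. Without the diaphragm LEC library that stood apart they were -1.502, -0.95, -0.93, -0.74 and 1.16 in that order, with -0.75 for Pdpn, each with an adjusted p under 0.05.

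In the cardiomyocyte pellets the members had low levels, with a summed 189 to 332 TPM against 578 to 1201 TPM in heart BECs, 3372 to 5603 TPM in heart LECs and 6929 to 10740 TPM in diaphragm LECs. Most of the sum in the pellets was Sox18, at 126 to 263 TPM. Heart BECs were higher than the pellets in 5 members, a direction in which 64.1% of the 23213 genes tested were called, and lower in 1, against 10.8% of all genes. Sox18 was higher by 2.22 ± 0.12, Clec2d by 1.85 ± 0.12, Lyve1 by 1.21 ± 0.15, Reln by 0.98 ± 0.21 and Mmrn1 by 0.81 ± 0.17, and the median over all genes was 0.61. Lyve1 and Mmrn1 lost their calls after quantile normalization (0.19 and 0.03), and Reln and Mmrn1 lost theirs with the number of genes detected as a covariate (0.14 and 0.58). Pdpn was lower in BECs, by -0.89 ± 0.22 (limma, adjusted p = 0.00094), and lost its call with the number of genes detected as a covariate (-0.79, adjusted p = 0.15). This difference stood beside fibroblast markers that summed to 2497 to 6657 TPM in the pellets and 475 to 4169 TPM in BECs. The part of fibroblast transcripts in the Pdpn level was not tested. Prox1, which cardiac muscle is also known to express, had 0.867 to 6.18 TPM in the pellets and 1.06 to 5.72 TPM in BECs. Its difference had an interval from -0.21 to 0.53, but the eGFP-negative gate acted on the Prox1 level of BECs.

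The treatment comparisons asked whether angiotensin II, alone or with VEGFCc156s, altered these genes in each population. In heart LECs it did not detectably do so. Prox1 had 176 ± 32.4 TPM in ctrl (SD, n = 4), 159 ± 47.6 in angII (n = 5) and 189 ± 18.9 in angII+VEGFC (n = 3). Lyve1 had 1340 ± 307, 1329 ± 220 and 1499 ± 83.5 TPM in the same order, and Mmrn1 had 1870 ± 389, 1990 ± 472 and 2307 ± 414 TPM. The 3 groups overlapped for each of these genes. Reln was at 97.8 ± 28.1, 118 ± 47.4 and 131 ± 43.6 TPM. Of the surface glycoproteins, Pdpn was at 63.7 ± 21.1, 66.9 ± 11.6 and 68.8 ± 13.5 TPM, and Thy1 was at 83.7 ± 33.7, 65.4 ± 13.8 and 72.3 ± 9.78 TPM. Nr2f2 was at 53.7 ± 22.8, 43.1 ± 14.2 and 50.8 ± 14.0 TPM and Stab2 at 5.36 ± 6.14, 6.12 ± 2.12 and 10.2 ± 5.20 TPM. Sox18 was at 588 ± 172, 598 ± 141 and 495 ± 133 TPM and Clec2d at 22.6 ± 9.54, 18.3 ± 11.5 and 24.3 ± 4.72 TPM. For these members, too, the 3 groups overlapped. In the angII against ctrl comparison 0 of 10 members were called by limma and 0 had an unadjusted p under 0.05, while 0.0261% of 26803 genes were called, and the differences ran from -0.38 for Clec2d to 0.58 for Stab2 around a median of all genes of 0.23. Without the 2 libraries that stood apart, 0 of 10 members were called in each of the 3 treatment comparisons of heart LECs, and the Stab2 difference between angII and ctrl was 0.61. The summed blood endothelial genes were at 4084 to 4823 TPM in ctrl, 5018 to 9525 in angII and 4547 to 5376 in angII+VEGFC heart LECs. Every angII library was thus above every ctrl library, also without those 2. The part of this difference in the member levels was not tested.

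Between angII+VEGFC and angII heart LECs 0 of 10 members were called by limma and 0 had an unadjusted p under 0.05, 0% of the 26803 genes were called, and 2906 genes had an unadjusted p under 0.05. The members' differences ran from -0.20 for Sox18 to 0.58 for Clec2d, and the median of all genes was -0.37. The median number of genes detected was 18425 in angII+VEGFC and 22814 in angII, and with this number as a covariate the Clec2d difference was -1.15 (unadjusted p = 0.054, adjusted p = 0.85) and that of Sox18 -0.96 (unadjusted p = 0.024, adjusted p = 0.85). Between angII+VEGFC and ctrl 0 of 10 members were called, with 0 at an unadjusted p under 0.05 and 0% of genes called (1325 at an unadjusted p under 0.05), and differences from -0.18 for Sox18 to 0.98 for Stab2. For Lyve1 the intervals of the angII effect (-0.29 to 0.38) and of the effect of adding VEGFCc156s (-0.32 to 0.48) excluded changes of 1 log2 unit, while for Stab2 they reached from -0.60 to 1.76 and from -1.003 to 1.81. Stab2 in ctrl heart LECs was at 2.69, 14.6, 2.12 and 2.09 TPM, so that 1 library set the spread of its group.

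In diaphragm LECs 0 of 10 members were called between angII and ctrl, where 0% of 23839 genes were called by limma and 3651 had an unadjusted p under 0.05, and 2 members were at an unadjusted p under 0.05. The differences ran from -0.65 for Thy1 to 0.93 for Stab2. Thy1 had 139.5, 141, 166 and 163 TPM in ctrl, 134, 103, 68.4, 88.1 and 102 TPM in angII and 128, 134 and 128 TPM in angII+VEGFC. All ctrl libraries were higher than all angII libraries. The fitted angII effect was -0.65 ± 0.18, with an unadjusted p of 0.0032 and an adjusted p of 0.30. The library at 68.4 TPM was the one that stood apart, and without it the effect was -0.52 ± 0.14 (unadjusted p = 0.0027, adjusted p = 0.28). With the number of genes detected as a covariate it was -0.65 (unadjusted p = 0.0995, adjusted p = 1.00). Between angII+VEGFC and angII the Thy1 difference was 0.47 ± 0.21 (unadjusted p = 0.044, adjusted p = 0.57), or 0.32 without that library (unadjusted p = 0.077, adjusted p = 0.72), and the 2 groups overlapped through the angII library at 134 TPM.

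Sox18 in diaphragm LECs was at 718, 651, 792 and 884 TPM in ctrl, 667, 425, 374, 734 and 492 TPM in angII, and 513, 467 and 653 TPM in angII+VEGFC. The ctrl and angII libraries overlapped. The angII effect was -0.52 ± 0.20 (limma, unadjusted p = 0.017, adjusted p = 0.30), and it stood beside a rise in the number of genes detected, which was 20062 to 23691 in angII against 12924 to 18116 in ctrl. With that number as a covariate the effect was -0.65 (unadjusted p = 0.11, adjusted p = 1.00). The library at 374 TPM was again the one that stood apart, and without it the effect was -0.42 ± 0.18 (unadjusted p = 0.031, adjusted p = 0.33). Between angII+VEGFC and angII 0 of 10 members were called, with 1 at an unadjusted p under 0.05 and 0% of genes called (2094 at an unadjusted p under 0.05), and the largest difference in size was -0.67 ± 0.59 for Stab2 (limma, adjusted p = 0.70). Between angII+VEGFC and ctrl 0 of 10 were called, with 0 at an unadjusted p under 0.05, 0% of genes called, and 314 at an unadjusted p under 0.05, and the largest difference in size was that of Sox18, -0.47 ± 0.23 (adjusted p = 1.00).

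In heart BECs 0 of 10 members were called in any of the 3 treatment comparisons by limma, and 0% of 21281 genes were called in each, with 1149, 551 and 1172 genes at an unadjusted p under 0.05 for angII against ctrl, angII+VEGFC against angII and angII+VEGFC against ctrl. Of the members 1, 0 and 0 were at an unadjusted p under 0.05. Mmrn1, at the low level it has in BECs, had 17.4, 12.1, 23.6 and 35.9 TPM in ctrl, 12.3, 10.7, 12.3, 18.0 and 10.1 TPM in angII and 21.5, 10.5 and 8.05 TPM in angII+VEGFC. These groups overlapped. Its angII effect was -0.82 ± 0.24 (unadjusted p = 0.0047, adjusted p = 0.73) and was -0.77 within batch 1 and -1.14 within batch 2. Means of other members that LECs held more of were also lower in angII than in ctrl BECs, with overlapping libraries. They were 4.57 against 2.97 TPM for Prox1 and 51.7 against 37.5 for Lyve1, in ctrl and angII. Reln had 4.87 against 3.33 TPM and Thy1 4.67 against 2.81. Stab2 (0.660 against 0.740 TPM) and Sox18 (710 against 851 TPM) went the other way. In the other two comparisons the largest differences in size were 0.46 ± 0.62 for Thy1 between angII+VEGFC and angII and -0.70 ± 0.42 for Prox1 between angII+VEGFC and ctrl, and neither passed the test.

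**Figure D4:**
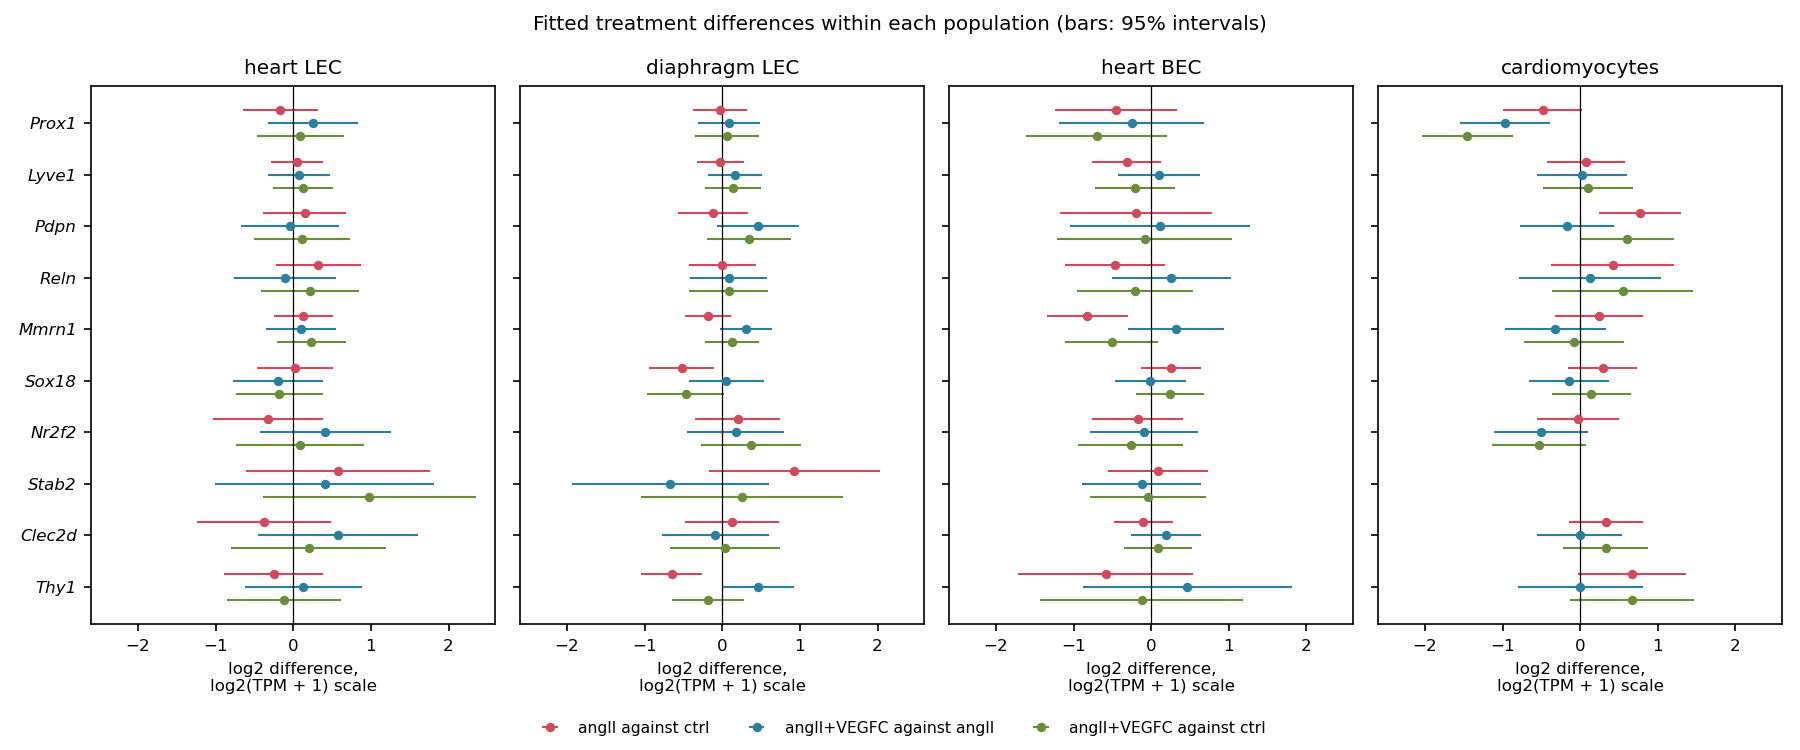
Fitted treatment differences of the members within each population, in units of log2(TPM + 1), with 95% intervals as bars and 1 colour for each of the 3 comparisons. Stab2 was not fitted in cardiomyocytes, where it was under 1 TPM in all 12 libraries, and most intervals cross 0, with Prox1 in cardiomyocytes the farthest from it at -1.45.

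In the cardiomyocyte pellets 9 of the 10 members were fitted. Prox1 was at 5.87, 6.18, 4.68 and 3.04 TPM in ctrl, 3.41, 3.10, 2.10, 2.21 and 4.61 TPM in angII and 1.44, 0.867 and 1.47 TPM in angII+VEGFC. The 3 angII+VEGFC libraries were lower than each of the other 9. The difference from ctrl was -1.45 ± 0.27 (limma, adjusted p = 0.032), and Prox1 was the 1 member called in this comparison, in which 0.663% of 15691 genes were called. The call was lost when the angII libraries were left out of the fit (adjusted p = 0.080), without the filter on low values (adjusted p = 0.13), and without any single ctrl library or without angII+VEGFC replicate 1 or 2 (adjusted p up to 0.16), while the difference stayed between -1.71 and -1.28 when single libraries were left out.

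Compared with angII alone, Prox1 in angII+VEGFC pellets was lower by -0.97 ± 0.27 (unadjusted p = 0.0031, adjusted p = 1.00), in a comparison with 0 of 9 members and 0% of genes called by limma, 1 member and 378 genes at an unadjusted p under 0.05. Other lymphatic transcripts in the same pellets gave these values: the sum of the 20 other lymphatic genes was 335 to 546 TPM in ctrl, 419 to 722 in angII and 464 to 534 in angII+VEGFC, and Mmrn1 was at 5.04 to 11.2, 7.06 to 12.7 and 4.92 to 9.33 TPM. The sum of the cardiomyocyte markers was 22909 to 53181 TPM in ctrl and 24735 to 45471 TPM in angII+VEGFC. These ranges overlapped between ctrl and angII+VEGFC. The sums of the blood endothelial genes, 2323 to 2864 TPM in ctrl and 3191 to 3538 TPM in angII+VEGFC, and of the macrophage markers, 644 to 846 and 1022 to 2243 TPM, did not overlap and were higher where Prox1 was lower. Their part in the Prox1 difference was not tested.

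Pdpn in the pellets was at 3.51, 2.95, 3.48 and 2.496 TPM in ctrl, 11.0, 3.95, 3.67, 5.69 and 6.16 TPM in angII and 5.88, 6.72 and 4.47 TPM in angII+VEGFC. Each library of the treated groups was higher than each ctrl library. The angII effect was 0.77 ± 0.25 (unadjusted p = 0.0073, adjusted p = 0.27), in a comparison with 0 of 9 members and 0.0892% of genes called by limma, 1 member and 1545 genes at an unadjusted p under 0.05. With the number of genes detected as a covariate it was 0.86 and passed the test (adjusted p = 0.047). The summed fibroblast markers were 2497 to 3594 TPM in ctrl, 4068 to 5710 TPM in angII and 3441 to 6657 TPM in angII+VEGFC, and the macrophage markers were 644 to 846, 1043 to 1897 and 1022 to 2243 TPM. Both sums were higher in every angII library than in every ctrl library. For angII+VEGFC this held for the macrophage markers, while the fibroblast sums overlapped those of ctrl. Pericyte and smooth muscle markers summed to 968 to 1739, 1026 to 1466 and 1174 to 1968 TPM in that order, and overlapped. What these transcripts contribute to the Pdpn level was not tested.

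**Figure D5:**
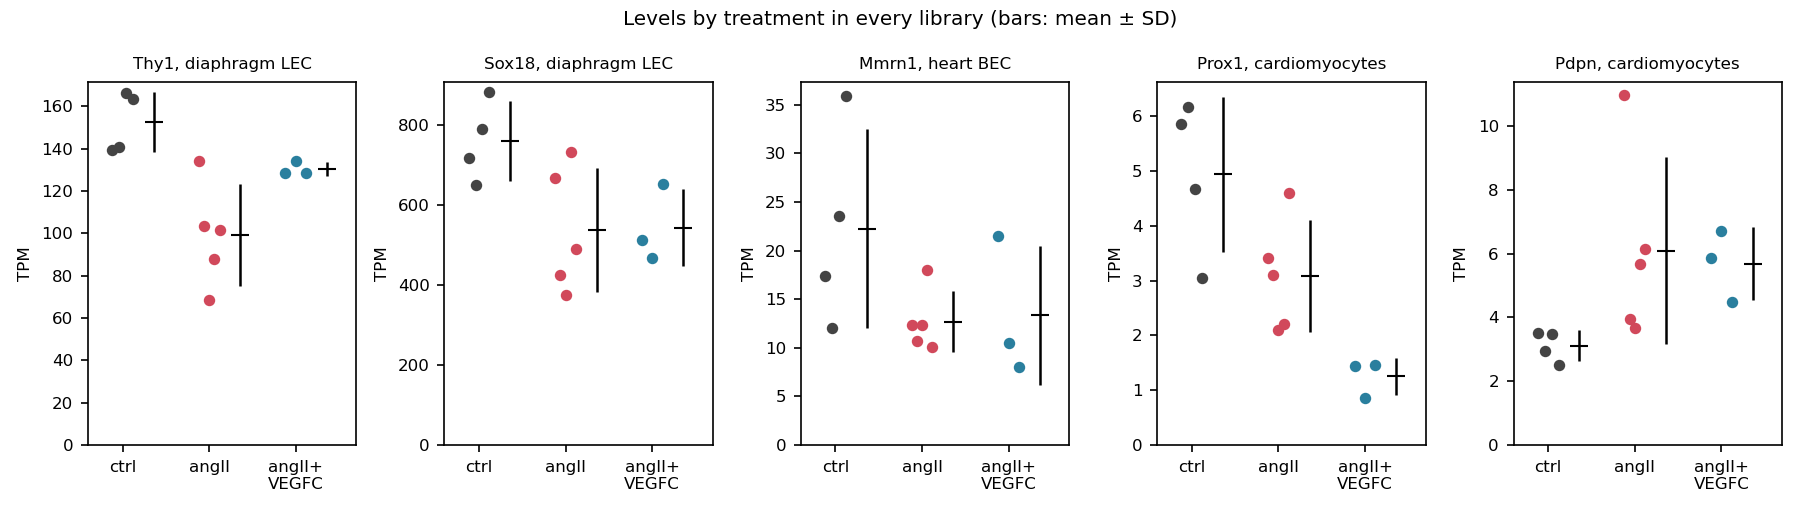
TPM by treatment in every library for the members and populations with an unadjusted p under 0.05 in a treatment comparison, with 1 point for each library and the mean ± SD at the right of each group. Thy1 in diaphragm LECs has its 4 ctrl points at 139.5 to 166 TPM, above all 5 angII points, and Prox1 in cardiomyocytes has its 3 angII+VEGFC points at 0.867 to 1.47 TPM, below all others.

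Whether a treatment effect differed between endothelial populations was tested for each member as an interaction. In the 6 interaction comparisons 0 of 10 members were called by limma, with 2 of 60 values at an unadjusted p under 0.05. Called genes were 0.00611% of 32754 for heart LECs minus diaphragm LECs between angII and ctrl and 0% in the other 5. The angII effect on Mmrn1 differed between heart LECs and heart BECs by 0.76 ± 0.30 (unadjusted p = 0.017, adjusted p = 0.63). Within heart BECs the Mmrn1 effect was a fall of -0.82. In heart LECs its means were 1870 ± 389 TPM in ctrl and 1990 ± 472 TPM in angII (SD). The angII effect on Sox18 differed between diaphragm LECs and heart BECs by -0.77 ± 0.29 (unadjusted p = 0.013, adjusted p = 0.39), or by -0.70 without the diaphragm LEC library that stood apart (unadjusted p = 0.026, adjusted p = 0.55). The largest estimate in each of the comparisons not led by these was 1.25 ± 0.69 for Stab2 and -0.55 ± 0.43 for Nr2f2 in heart LECs minus diaphragm LECs, for angII+VEGFC against angII and for angII against ctrl. Stab2 also had the largest estimate for angII+VEGFC against angII in heart LECs minus heart BECs (0.73 ± 0.68) and in diaphragm LECs minus heart BECs (-0.52 ± 0.69), and for angII against ctrl in the latter (0.81 ± 0.63). None passed the test.

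Across the 12 means of population and treatment, the members fell into groups by likeness of pattern, given here as Pearson's r of mean log2(TPM + 1) over 12 points. These points share populations, mice and sequencing sets, so no test was made. Lyve1, Reln, Mmrn1 and Thy1 were the most alike, with r from 0.991 for Lyve1 with Thy1 to 0.998 for Lyve1 with Reln, and Prox1 was at 0.970 to 0.994 with these and with Pdpn and Nr2f2. Stab2 was at 0.741 to 0.8292 with these 7. Sox18 and Clec2d were at 0.948 with each other and at 0.259 to 0.543 with the rest. Among 29322 genes those most like Prox1 were Dapk1, Prkcz and Dtx1 (r = 0.997, 0.996 and 0.995), those most like Mmrn1 were Pard6g, Tbx1 and Slc45a3 (r from 0.999 to 0.9995), and those most like Lyve1 were Adgrg3, Reln and Ackr2 (r = 0.999, 0.998 and 0.998). Pdpn was most like Emid1, Rtkn and Olfm1 (r from 0.996 to 0.999), Reln like Lyve1, Adgrg3 and Htr2b (r = 0.998 each) and Thy1 like Nqo1, Slc45a3 and Lcn2 (r from 0.996 to 0.997). For Nr2f2 the genes were Clca2, Tagln3 and Kcnn3 (r = 0.991, 0.989 and 0.988), for Sox18 Zbtb7a, Gnpda2 and Clasrp (0.994, 0.994 and 0.991), for Clec2d Herc4, Kdm5a and Abhd16a (0.989, 0.989 and 0.988), and for Stab2 Nipal4, Olfr1349 and Wnt4 (0.985, 0.971 and 0.969).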

How the data were processed

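RNA from sorted endothelial cells and cardiomyocyte pellets was amplified as Smart-Seq cDNA and sequenced from Nextera XT libraries. The authors deposited 1 matrix of TPM values for 54752 Ensembl genes in 48 libraries. The submitters' processing notes name STAR 2.5.3a, Salmon 0.12.0 and GRCm38. TPM keeps no read counts, so depth and counting error are unknown and the count test of the study could not be used. limma 3.58.1 in R 4.3.3, with a mean-variance trend, was fitted to log2(TPM + 1) of the genes that reached 1 TPM in 3 or more of the libraries fitted, with Benjamini-Hochberg adjustment over all genes tested and an adjusted p under 0.05 as the threshold. Fold changes of low genes are understated on this scale. Endothelial populations were compared in 1 fit of 36 libraries with 9 groups, age and sequencing batch, heart BECs and cardiomyocytes in a fit of 24 libraries with age, and treatments within each population. All tests are two-sided.

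The members and lists were chosen with earlier results of these data known. Named were all 10 members, in treatment comparisons those at an unadjusted p under 0.05 (with fewer than 2, also the largest change), and the 3 genes most like each member. Of the other lymphatic and blood endothelial lists, the 3 highest and 3 lowest differences by signed value were named. Most mice gave several populations, so the samples are paired by mouse. A replicate number of a treatment stands for the same mouse in each population, except for angII replicate 3. That was mouse 4 in diaphragm LECs and mouse 12 in the other populations. Deviations of libraries of the same mouse from their group means correlated weakly, with a mean r from 0.030 to 0.083 over the 4 pairs of populations. Alternatives were a pseudocount of 0.1, no filter, no covariates, quantile normalization, the number of genes detected as a covariate, only the groups compared, each mouse or library left out, the mouse as a replicate block, and each batch. Leaving out the 2 heart LEC libraries that stood apart was chosen after seeing the data. The fits were checked on simulated data with independent noise and with shifts larger than any treatment difference of a member reported here. That check does not show which smaller changes the treatment comparisons could detect. Python 3.11.15, pandas 2.3.3, NumPy 2.4.6 and matplotlib 3.10.9 were used for the rest.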

Additional observations from a re-analysis of the deposited data

Results flagged for a closer look

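In 6 of 80 groups of 4 or more libraries, 1 library lay far from the rest of its group for a member, and chance alone flags about 1 in 20 groups. Prox1 in diaphragm LECs was at 175 TPM in angII replicate 1 and at 224 to 245 TPM in the other angII libraries. Lyve1 in diaphragm LECs was at 3150 TPM in ctrl replicate 3 and at 3986 to 4050 TPM in the other ctrl libraries. Pdpn in heart BECs was at 4.59 TPM in angII replicate 1 and at 1.22 to 1.65 TPM in the others. Sox18 in heart LECs was at 330.1 TPM in ctrl replicate 1 and at 659 to 686 TPM in the others. Stab2 in heart LECs was at 14.6 TPM in ctrl replicate 2 and at 2.09 to 2.69 TPM in the others. Stab2 in cardiomyocytes was at 0.630 TPM in angII replicate 2 and at 0.113 to 0.174 TPM in the others.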

How the results depend on the processing

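Of 489 alternative values of the 26 counts of members, 464 stayed within 1.5 times the reported count. Most of the 26 counts were 0, mainly in treatment and interaction comparisons that called few or no genes. A 0 that stayed 0 is among the 464, so this share says little about the counts above 0. After quantile normalization, 1 member was lower in diaphragm LECs than in heart BECs in place of 0, 0 were higher in heart than in diaphragm LECs in place of 1, and heart BECs were higher than cardiomyocytes in 3 members and lower in 2. With the number of genes detected as a covariate, 0 members were lower in heart LECs than in heart BECs, heart BECs were higher than cardiomyocytes in 3 and lower in 0, and 1 was called in cardiomyocytes between angII and ctrl. Within batch 1, 0 members were lower in heart LECs than in heart BECs, and 0 were higher and 2 lower in heart than in diaphragm LECs, while within batch 2, 0 were higher. For angII+VEGFC against ctrl in cardiomyocytes, 0 were called without the filter and with only these groups fitted. With single mice or libraries left out, the counts ranged from 0 to 1 lower in diaphragm LECs than in heart BECs (1 without mouse 1, 3 or 18), from 0 to 1 higher and 3 to 6 lower in heart than in diaphragm LECs (0 and 3 without mouse 6), and from 0 to 1 called in cardiomyocytes between angII+VEGFC and ctrl. The cause of these shifts was not tested. Batches hold fewer libraries.

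Of 1213 alternative values of single genes, 1149 kept direction and call, 39 lost the call, 11 gained one and 14 changed sign, of which 13 were not called before or after. Clec2d was 0.21 with the covariate and 0.084 within batch 2 (heart LECs against BECs), -0.31 within batch 1 and -0.0099 without the libraries that stood apart (heart against diaphragm LECs), and -1.15 with the covariate (heart LECs, angII+VEGFC against angII). The Stab2 interactions of diaphragm LECs minus heart BECs were -0.12 (angII against ctrl) and 0.23 (angII+VEGFC against angII) after quantile normalization, and -0.23 and 0.11 within batch 2. Between heart BECs and cardiomyocytes, Prox1 was -0.49 after quantile normalization and -0.13 with the covariate, and Nr2f2 was -0.61 after quantile normalization (adjusted p = 0.013). Thy1 in heart BECs, angII+VEGFC against angII, ranged from -0.017 to 0.94 with single libraries left out (lowest without angII+VEGFC replicate 1, highest without its replicate 2) and was -0.11 within batch 1. Quantile normalization moved the median of all genes by -0.47 to 0.39. With the mouse as a replicate block, Thy1 became called between heart and diaphragm LECs (-0.87, adjusted p = 0.033), where 6 members were then lower, and no other call changed. Groups of 3 to 5 mice and unknown depth limit what treatment comparisons could detect.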
